A study of Ovis aries with 6 samples.

Results

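HTR2C, the serotonin 2C receptor gene (identifier 101108550), was 1 of the 33609 genes listed and 1 of the 18019 with enough reads to be tested. It was picked by its symbol because its level was already known to differ between these groups, so its own levels are given as a description, without a test. The tissue was the choroid plexus of ewes, sequenced as polyA RNA in 6 pools. THX pools came from thyroidectomised ewes in long days, Long pools from control ewes in long days and Short pools from control ewes in short days. The design text gives 7 ewes for THX and 8 each for Long and Short, a sum that differs from the total it states. RNA of the ewes was mixed in equal amounts into 2 pools per group of 3 to 4 ewes. A pool averages its ewes, so the spread between pools is not the spread between animals. Total counts ran from 48282883 to 82100653 per pool.

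HTR2C encodes a serotonin receptor that couples to Gq, which activates phospholipase C and releases calcium from internal stores. The choroid plexus epithelium, which secretes cerebrospinal fluid, is known in rodents as the tissue richest in this receptor, where serotonin lowers fluid secretion. Its messenger RNA is edited by adenosine deaminases of the ADAR family at sites that change how well the receptor couples to its G protein. Counts per gene do not show that editing, and no sequence of the receptor was used here.

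HTR2C formed 3 separate levels, lowest in THX pools, intermediate in Long pools and highest in Short pools. Its raw counts were 1546 and 1733 in THX pools, 2486 and 2398 in Long pools, and 5954 and 3485 in Short pools. As CPM, the count relative to the library total after adjustment of that total by TMM factors, it stood at 27.2 and 26.1 CPM in THX pools, 44.4 and 44.1 CPM in Long pools, and 70.4 and 69.4 CPM in Short pools. No pool of one group lay within the range of another. Both pools were lower without overlap for 18.7% of all tested genes in THX against Long, 26.8% in Long against Short and 26.7% in THX against Short pools, and HTR2C was picked for this order. The gap between the highest THX pool and the lowest Long pool was 16.9 CPM, and that between the highest Long and the lowest Short pool was 25.1 CPM. Within a group the 2 pools were never more than 1.11 CPM apart.

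**Figure D1:**
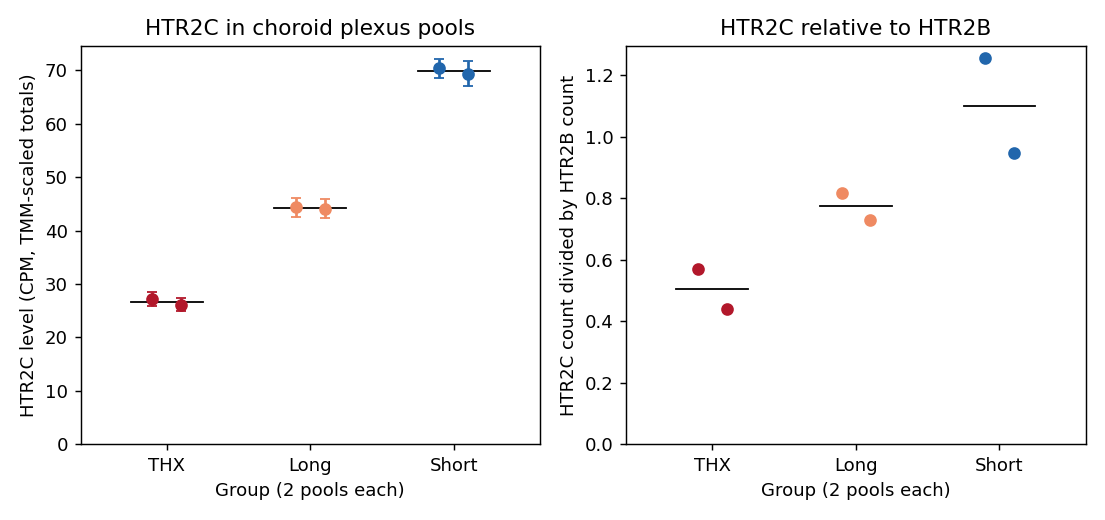
Left, HTR2C in CPM for each of the 2 pools of the THX, Long and Short groups, with exact 95% Poisson intervals of the count as bars and the group mean as a line. Right, the HTR2C count divided by the HTR2B count of the same pool, with group means as lines; in both panels the THX pools lie below the Long pools and the Long pools below the Short pools.

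Counting error was small beside the gaps between groups, but not beside the gaps between the 2 pools of a group. The exact 95% Poisson interval, which covers counting error alone, ran from 25.9 to 28.6 CPM for THX pool 1 and from 68.6 to 72.2 CPM for Short pool 1. The intervals of the 2 pools of each group overlapped, and those of different groups did not.

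Mean HTR2C was 26.7 ± 0.784 CPM in THX pools against 44.2 ± 0.159 CPM in Long pools (SD, n = 2 each), a log2 difference of −0.73 (SE 0.0721), or 1.66-fold lower in THX pools. Long pools stood against 69.9 ± 0.711 CPM in Short pools, a log2 difference of −0.66 (SE 0.0713), or 1.58-fold lower in Long pools. Between the ends of the order, THX pools were 2.62-fold below Short pools (log2 difference −1.39, SE 0.0726). The THX minus Long step less the Long minus Short step was −0.07 on the log2 scale (SE 0.124), given as a description. Both steps use the Long pools, so they are not independent of each other.

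Among the 18019 tested genes, 3.47% had a THX minus Long difference as low as that of HTR2C or lower. Among the 13703 tested genes with a mean of at least 2 CPM the share was 1.37%. For Long minus Short the shares were 4.52% and 1.47%, and for THX minus Short 1.09% and 0.343%. The median log2 difference of all tested genes lay between −0.01 and 0.00 in each comparison.

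The ratio of HTR2C to HTR2B, the related serotonin 2B receptor gene, does not depend on how libraries are scaled. The ratio of their counts was 0.571 and 0.441 in THX pools, 0.817 and 0.730 in Long pools, and 1.26 and 0.947 in Short pools. The 3 groups again did not overlap, although the 2 pools of a group lay further apart than for HTR2C alone. HTR2B itself stood at 47.7 and 59.2 CPM in THX pools, 54.3 and 60.4 CPM in Long pools, and 56.1 and 73.3 CPM in Short pools. Its THX and Long pools overlapped, as did its Long and Short pools. The log2 differences of HTR2B were −0.10 for THX minus Long (SE 0.156, adjusted p = 0.954) and −0.17 for Long minus Short (SE 0.155, adjusted p = 0.618), by the quasi-likelihood test of edgeR adjusted over all tested genes.

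The third member of the receptor subfamily, HTR2A, had between 0 and 2 counts in each of the 6 pools and was not tested. Of the 26 serotonin genes considered, 14 were tested, HTR2C among them. The 12 that had too few counts were HTR2A, HTR1A, HTR1D, HTR3A, HTR3B, HTR4, HTR5A, HTR6, the synthetic enzyme TPH1, the vesicle transporters SLC18A1 and SLC18A2, and ASMT, the last enzyme of melatonin synthesis. None of these 12 had more than 11 counts in a pool.

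The other receptors with reads couple to Gi or Gs rather than Gq. HTR1F, a Gi-coupled receptor, had 27.4 and 25.9 CPM in THX pools, 22.7 and 23.1 CPM in Long pools, and 23.9 and 24.4 CPM in Short pools. Its THX pools lay above both other groups without passing the test (THX minus Long log2 difference 0.22, SE 0.0851, adjusted p = 0.514). HTR1E, also Gi-coupled, had 15.0 and 11.6 CPM in THX pools, 24.96 and 16.5 CPM in Long pools, and 18.1 and 18.5 CPM in Short pools. Its THX pools lay below all other pools, and the 2 Long pools stood on either side of the Short pools. The THX minus Long difference of HTR1E was −0.64 on the log2 scale (SE 0.210, adjusted p = 0.41), nearest to that of HTR2C among the 13 other tested genes but with a larger error. HTR1B averaged 1.37 CPM in THX pools, 1.05 CPM in Long pools and 1.85 CPM in Short pools. Its Long minus Short log2 difference was −0.80 (SE 0.385, adjusted p = 0.386). In that comparison HTR1B was the 1 of the 13 other tested genes as low as HTR2C (−0.66) or lower. The Gs-coupled HTR7 averaged 0.672, 0.488 and 0.573 CPM in the same groups, and neither passed the test.

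Serotonin handling was represented mainly by uptake and breakdown. MAOA, the monoamine oxidase that degrades serotonin, had 95.7 and 81.0 CPM in THX pools, 59.3 and 58.9 CPM in Long pools, and 69.1 and 53.9 CPM in Short pools. Both THX pools exceeded all 4 control pools, in the direction opposite to HTR2C, but the differences did not pass the test (THX minus Long log2 difference 0.58, SE 0.135, adjusted p = 0.222, and THX minus Short 0.52, SE 0.135, adjusted p = 0.107). Over all alternatives its adjusted p ran from 0.00644 to 0.822 for THX minus Long and from 0.00656 to 0.22 for THX minus Short. SLC29A4, a low-affinity monoamine transporter, had 86.9 and 84.3 CPM in THX pools, 76.9 and 81.5 CPM in Long pools, and 97.3 and 81.2 CPM in Short pools, with no comparison past the test. SLC6A4, the high-affinity serotonin transporter, had 1.67 and 1.54 CPM in THX pools, 1.87 and 1.56 CPM in Long pools, and 2.13 and 3.33 CPM in Short pools. Its Short pools were the highest, without passing the test against Long pools (Long minus Short log2 difference −0.66, SE 0.279, adjusted p = 0.362). The synthetic enzymes were scarce, with DDC between 0.473 and 1.03 CPM and TPH2 between 0.246 and 0.438 CPM over the 6 pools. AANAT, the enzyme before ASMT, ran from 0.088 to 0.239 CPM, the transporter SLC22A3 from 1.18 to 2.11 CPM and MAOB, the second monoamine oxidase, from 3.61 to 5.59 CPM.

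**Figure D2:**
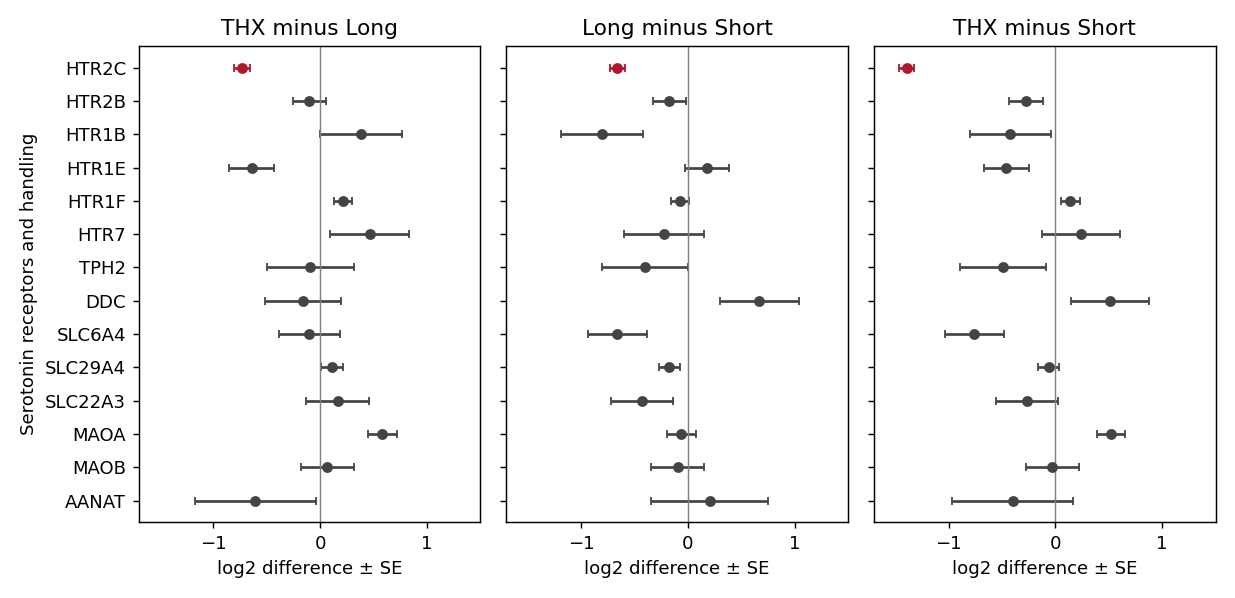
Log2 differences (x axis, with SE as bars) of the 14 tested serotonin genes (rows) for THX minus Long, Long minus Short and THX minus Short, with HTR2C in red. HTR2C lies at −0.73, −0.66 and −1.39, while its relative HTR2B lies at −0.10, −0.17 and −0.28 with wider SE bars. In Long minus Short, HTR1B lies at −0.80 and SLC6A4 at −0.66.

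Counted together, 0 of the 13 other tested serotonin genes changed in THX against Long pools, where 0.283% of all tested genes changed (51 of 18019). Likewise 0 of 13 changed in Long against Short pools, where 0% of all genes did, and 0 of 13 in THX against Short pools, where 0.916% did (165 of 18019). The unadjusted p was below 0.05 for 9.08%, 13.8% and 22.6% of all tested genes in the same order of comparisons. In Long against Short pools limma-voom also called 0 genes and DESeq2 called 159. Of the 13, DESeq2 called MAOA in THX against Long and in THX against Short pools and no member in Long against Short pools. The median log2 difference of the 13 was 0.06 for THX minus Long, −0.17 for Long minus Short and −0.26 for THX minus Short. Without overlap between groups, 1 of the 13 was lower and 4 were higher in THX against Long pools, where 37.2% of all tested genes did not overlap. The counts were 5 lower and 1 higher in Long against Short pools (53.5% of all genes), and 4 lower and 3 higher in THX against Short pools (52.5% of all genes).

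Genes that act downstream of the receptor were then followed from a list of 39, of which 38 were tested. No member changed in THX against Long, Long against Short or THX against Short pools, where 0.283%, 0% and 0.916% of all tested genes did. The median log2 differences were −0.03 for THX minus Long, 0.02 for Long minus Short and −0.06 for THX minus Short. Without overlap, 11 of the 38 were lower and 4 higher in THX against Long pools (37.2% of all tested genes did not overlap). The counts were 12 lower and 8 higher in Long against Short pools (53.5%), and 13 lower and 6 higher in THX against Short pools (52.5%). The G protein subunits GNAQ and GNA11, to which the receptor couples, were at −0.02 and 0.02 on the log2 scale for THX minus Long (adjusted p = 0.987 for both). GNAQ was lower without overlap in Long against Short (−0.13, adjusted p = 0.552) and THX against Short pools (−0.16, adjusted p = 0.377). GNA11 overlapped in every comparison. Of the same family, GNA15 was lower without overlap in THX against Long (−0.36, adjusted p = 0.653) and THX against Short pools (−0.33, adjusted p = 0.325), and GNA14 overlapped throughout. PLCB1, a phospholipase C activated by Gq, had 35.2 and 35.4 CPM in THX pools, 40.1 and 44.9 CPM in Long pools, and 49.4 and 45.6 CPM in Short pools. The order of the 3 groups was that of HTR2C, with smaller gaps, and THX minus Short had the lowest adjusted p of the list (log2 difference −0.43, adjusted p = 0.0742). PRKCB, a calcium-dependent protein kinase C, had 44.0 and 41.8 CPM in THX pools, 50.9 and 49.9 CPM in Long pools, and 62.1 and 53.3 CPM in Short pools (THX minus Short adjusted p = 0.0819). ITPR1, the calcium channel opened by inositol trisphosphate, averaged 254.8 ± 17.6 CPM in THX pools, 275.8 ± 23.6 CPM in Long pools and 332.3 ± 41.2 CPM in Short pools (SD, n = 2 each), and its adjusted p for THX minus Short was 0.13. ARRB1, an arrestin that uncouples receptors, had 49.9 and 48.3 CPM in THX pools, 49.7 and 51.1 CPM in Long pools, and 60.7 and 61.7 CPM in Short pools. Its Short pools were the highest and its THX and Long pools overlapped. The Long minus Short difference of ARRB1 was −0.28 on the log2 scale (adjusted p = 0.342). MPDZ, a scaffold protein known to bind the tail of this receptor, had a log2 difference of 0.01 for THX minus Long and −0.28 for Long minus Short (adjusted p = 0.993 and 0.342). Members with a low p also went the other way. PRKCE was higher without overlap in THX against Long pools (log2 difference 0.36, adjusted p = 0.526). It was lower without overlap in Long against Short pools (−0.27, adjusted p = 0.42). CALM3 was higher without overlap in Long against Short pools (0.22, adjusted p = 0.342).

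In THX against Short pools DESeq2 called 4 of the 38, ARRB1, ITPR1, PLCB1 and PRKCB. With edgeR, PLCB1 was called when libraries were scaled to total counts, and PLCB1 and PRKCB when no filter on low counts was used. Without THX pool 1 the edgeR count was 2, namely ORAI1, a store-operated calcium channel, and RGS2, an inhibitor of Gq. RGS2 had 12.9 and 24.4 CPM in THX pools, 19.3 and 17.8 CPM in Long pools, and 13.4 and 12.4 CPM in Short pools, so that the pool left out lay within the range of the Short pools.

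The enzymes that edit the receptor's messenger RNA did not pass the test in any comparison, nor did any other of the 10 tested genes of RNA editing. Of all tested genes, 0.283% passed in THX against Long, 0% in Long against Short and 0.916% in THX against Short pools. ADAR had 210.6 and 167.5 CPM in THX pools, 169.3 and 174.8 CPM in Long pools, and 184.7 and 188.8 CPM in Short pools. ADARB1 averaged 168.0 ± 2.13 CPM in THX pools, 159.9 ± 3.14 CPM in Long pools and 173.7 ± 7.53 CPM in Short pools (SD, n = 2 each). ADAR overlapped between THX and both other groups and was lower without overlap in Long than in Short pools. ADARB1 was higher in THX than in Long pools and lower in Long than in Short pools, both without overlap. Of all tested genes, 37.2% did not overlap in THX against Long and 53.5% in Long against Short pools. The adjusted p of ADAR and ADARB1 was 0.848 and 0.889 for THX minus Long and 0.633 and 0.456 for Long minus Short.

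HTR2C was set beside markers of the epithelium that carries it. The list held 28 markers besides HTR2C, of which 26 were tested, and the summed level of all listed markers was 133400 and 155500 CPM in THX pools, 122600 and 124500 CPM in Long pools, and 103200 and 107800 CPM in Short pools. TTR, the thyroid hormone carrier, made up 83.8% to 90.5% of these sums. The summed level without TTR was 14500 and 14750 CPM in THX pools, 14980 and 15300 CPM in Long pools, and 16760 and 15110 CPM in Short pools. The sum with TTR thus ran opposite to HTR2C, while the THX pools were the lowest and the first Short pool the highest without it. In bulk tissue, fewer cells of a type and less of an RNA in each cell cannot be told apart.

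Of the 26 tested markers, 1 rose and 1 fell in THX against Long pools, where 0.0499% of all tested genes rose and 0.233% fell. SOSTDC1, a secreted Wnt and BMP antagonist, rose (log2 difference 1.44, adjusted p = 0.0337), and CAB39L, a scaffold for a kinase that acts on ion transport, fell (−0.63, adjusted p = 0.0274). Both calls were lost in each of the 6 fits that left out 1 pool. The median of the 26 was 0.05 on the log2 scale, beside 0.00 for all tested genes, and none of the 26 was as low as HTR2C.

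In Long against Short pools no marker passed, where 0% of all tested genes did (median log2 difference −0.11). SLC4A10 and KRT8 were as low as HTR2C or lower. SLC4A10, a bicarbonate transporter of this epithelium, had 226.8 and 166.4 CPM in THX pools, 179.3 and 188.4 CPM in Long pools, and 355.2 and 255.2 CPM in Short pools. Its Short pools were the highest, and its THX and Long pools overlapped (Long minus Short log2 difference −0.73, adjusted p = 0.342). DESeq2 called it, with IGFBP2.

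In THX against Short pools 2 markers rose and 2 fell (0.316% and 0.599% of all tested genes). KL, the FGF23 coreceptor klotho, had 714.6 and 608.0 CPM in THX pools, 892.9 and 978.1 CPM in Long pools, and 1278 and 1098 CPM in Short pools. Its 3 groups did not overlap and stood in the order of HTR2C, with a THX minus Short difference of −0.85 on the log2 scale (adjusted p = 0.033). CAB39L fell as well (−0.82, adjusted p = 0.0139), and IGFBP2, an insulin-like growth factor carrier, rose (1.01, adjusted p = 0.0237), as did SOSTDC1 (1.35, adjusted p = 0.0306). CAB39L had 301 and 290.2 CPM in THX pools, 466.1 and 451.5 CPM in Long pools, and 529.9 and 512.9 CPM in Short pools. Its groups also stood in the order of HTR2C without overlap. Of the 26 markers, 10 were lower and 8 higher without overlap in THX against Short pools (52.5% of all tested genes did not overlap). The count of 4 was 9 without THX pool 1 and 3 without THX pool 2. It was 0 without Long pool 1, Long pool 2 or Short pool 1, and 1 without Short pool 2. None of the 26 had a difference as low as the −1.39 of HTR2C.

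Defining markers of the epithelium differed in direction. CLIC6, a chloride channel protein, had 878.9 and 867.3 CPM in THX pools, 721.1 and 678.9 CPM in Long pools, and 667.4 and 653.3 CPM in Short pools. KCNJ13, an apical potassium channel, averaged 699.8 ± 110.7 CPM in THX pools, 879.1 ± 19.6 CPM in Long pools and 957.7 ± 14.5 CPM in Short pools (SD, n = 2 each). Its groups stood in the order of HTR2C without overlap. FOLR1, the folate receptor, had 375.8 and 464.6 CPM in THX pools, 402.3 and 433.5 CPM in Long pools, and 337.1 and 336.6 CPM in Short pools. None of these 3 passed in any of the 3 comparisons (lowest adjusted p = 0.0615, for CLIC6 in THX minus Short). In that comparison CLIC6 was called in 4 of 16 fits with the alternatives, KCNJ13 in 3 and FOLR1 in 2. Their lowest adjusted p was 9.17e-06 for CLIC6 and 0.00394 for KCNJ13, both by DESeq2, and 0.0363 for FOLR1, without THX pool 1 and Short pool 1. CLIC6 was also called by DESeq2 in THX against Long pools (adjusted p = 0.00283).

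Scaled to the geometric mean of the tested epithelial markers without TTR, HTR2C kept its direction. The log2 differences were then −0.90 for THX minus Long, −0.50 for Long minus Short and −1.39 for THX minus Short. Scaled to the summed markers, they were −0.95, −0.89 and −1.84.

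**Figure D3:**
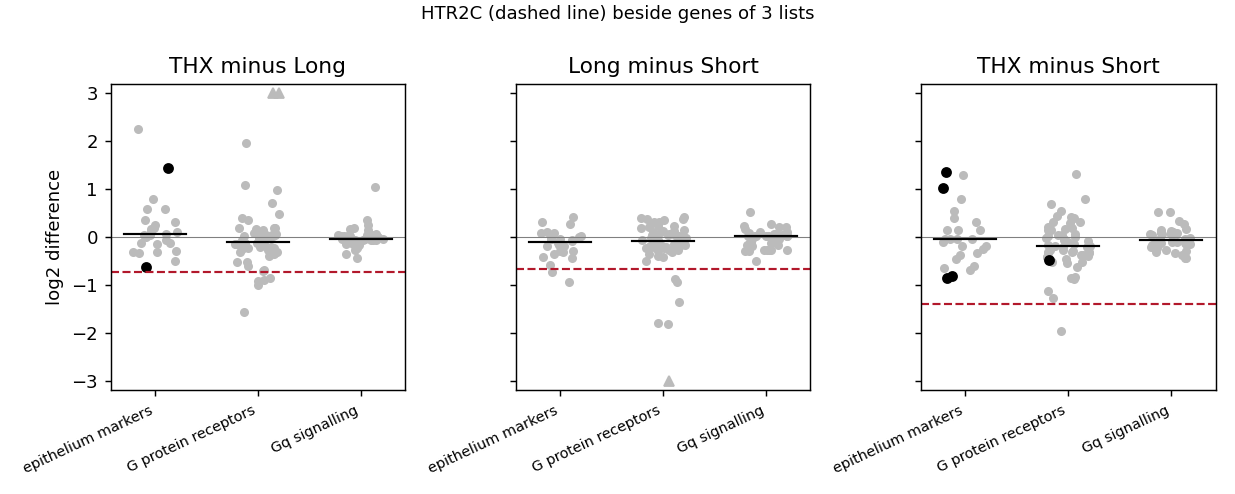
Log2 differences (y axis) of the tested epithelium markers, other G protein-coupled receptors and Gq signalling genes in each comparison, with list medians as bars, genes that passed the test in black and HTR2C as a dashed line. Triangles at the edge mark DRD2 (3.10) and GHRHR (5.91) in THX minus Long and GHRHR (−5.48) in Long minus Short, and no epithelium marker reaches the dashed line in THX minus Long or THX minus Short. GHRHR rests on few counts, 69 and 9 in THX pools, 0 and 1 in Long pools, and 71 and 5 in Short pools. Its SE was 1.9 for THX minus Long and 1.93 for Long minus Short.

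Markers of other cells were read for the same pools. HTR2C is also known in neurons, and of 23 listed neuronal markers 15 were below 1 CPM in every pool, GAD1, GAD2 and SLC17A7 among them. SNAP25, a vesicle fusion protein, was the abundant member, at 318.0 and 324.0 CPM in THX pools, 282.5 and 306.0 CPM in Long pools, and 297.7 and 285.5 CPM in Short pools. Without SNAP25 and POMC the neuronal markers summed to 27.9 and 26.6 CPM in THX pools, 24.1 and 23.2 CPM in Long pools, and 18.3 and 26.7 CPM in Short pools. That sum was lowest in Short pool 1, and its THX pools lay above both Long pools. The part of neurons in the level of HTR2C was not tested. Of the 16 tested, 5 were lower and 3 higher in THX against Long pools without overlap, where 37.2% of all tested genes did not overlap. GAD1, an enzyme of GABA synthesis, was among the lower ones, with 0.0704 and 0.0904 CPM in THX pools, 0.196 and 0.221 CPM in Long pools, and 0.154 and 0.418 CPM in Short pools. GAD2 and SLC17A7 were likewise lower in both THX pools than in the other 4. No tested neuronal marker passed in THX against Long, Long against Short or THX against Short pools, where 0.283%, 0% and 0.916% of all tested genes did. POMC, which the pituitary also makes in quantity, stood at 30.7 and 8.77 CPM in THX pools, 2.43 and 2.47 CPM in Long pools, and 23.6 and 8.23 CPM in Short pools. Without THX pool 1 and Short pool 1, the pools highest in POMC, the log2 differences of HTR2C were −0.76 for THX minus Long, −0.65 for Long minus Short and −1.41 for THX minus Short.

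The 20 fibroblast markers summed to 2121 and 2288 CPM in THX pools, 2604 and 2553 CPM in Long pools, and 2576 and 2811 CPM in Short pools. The THX pools were below the others, and LUM, a collagen-binding proteoglycan, fell against Long and against Short pools (adjusted p = 0.0314 and 0.0351). Of the 18 tested, LUM was the 1 that changed, where 0.233% of all tested genes fell against Long and 0.599% against Short pools. The calls of LUM were not followed over the alternative fits. Of the 18, 6 lay above 0 in THX minus Long and 4 in THX minus Short. SLC6A13 was the highest, at 1.44 and 1.08 on the log2 scale. Summed macrophage markers were 288.5 and 304.7 CPM in THX pools, 327.5 and 350.3 CPM in Long pools, and 268.5 and 304.9 CPM in Short pools. Mural markers summed to 1247 and 1401 CPM in THX pools, 1503 and 1441 CPM in Long pools, and 1440 and 1757 CPM in Short pools, so that THX pools were again the lowest. Ependymal markers were highest in THX pools, with sums of 1629 and 1681 CPM against 1470 and 1438 CPM in Long pools and 1574 and 1421 CPM in Short pools. Endothelial sums ran from 1122 to 1373 CPM and those of astrocyte and oligodendrocyte markers from 154.5 to 180 CPM, with overlap between THX and Long pools. None of the tested mural, ependymal, endothelial, astrocyte and oligodendrocyte or macrophage markers changed. Of all tested genes, 0.283% changed in THX against Long, 0% in Long against Short and 0.916% in THX against Short pools. The part of these cells in the level of HTR2C was not tested.

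Other receptors that couple to G proteins gave a wider view, from a list of 77, of which 58 were tested. None changed in THX against Long or in Long against Short pools, where 0.283% and 0% of all tested genes did. EDNRB, the endothelin B receptor, had 995.4 and 1017 CPM in THX pools, 1292 and 1219 CPM in Long pools, and 1436 and 1366 CPM in Short pools. Its groups stood in the order of HTR2C without overlap, and it fell in THX against Short pools (log2 difference −0.48, adjusted p = 0.0475), the 1 of 58 that did, where 0.599% of all tested genes fell. That call held without THX pool 1 and was lost without each of the other 5 pools.

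In THX minus Long, 5 of the 58 were as low as HTR2C or lower, as were 3.47% of all tested genes. All 5 were scarce. PTGER3, a prostaglandin E2 receptor, was the most abundant of them, at 3.12 and 2.76 CPM in THX pools, 4.39 and 6.18 CPM in Long pools, and 4.87 and 5.60 CPM in Short pools. Its THX pools were the lowest and its Long and Short pools overlapped (THX minus Long log2 difference −0.85, adjusted p = 0.266). CALCR, VIPR1, VIPR2 and HRH2 made up the rest, each at or below 2.13 CPM in every pool. In Long minus Short, 6 of the 58 were as low as HTR2C or lower (4.52% of all tested genes). In THX minus Short it was 1, CALCR, at −1.95 (1.09% of all tested genes). ADRA2A, an adrenergic receptor that couples to Gi, had 174.1 and 112.5 CPM in THX pools, 62.6 and 82.3 CPM in Long pools, and 98.1 and 79.5 CPM in Short pools. Its THX pools were the highest, without passing (THX minus Long log2 difference 0.98, adjusted p = 0.222).

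HTR2C was compared with 2 known targets of the thyroid hormone receptor. HR, a corepressor, had 3.36 and 2.76 CPM in THX pools, 23.7 and 23.4 CPM in Long pools, and 25.6 and 25.3 CPM in Short pools. KLF9, a transcription factor, had 36.1 and 34.1 CPM in THX pools, 93.2 and 89.9 CPM in Long pools, and 99.98 and 88.3 CPM in Short pools. In both genes the THX pools stood apart. The Long and Short pools of KLF9 overlapped. Those of HR did not, with Long pools below Short pools by less than 3 CPM. Of all tested genes, 26.8% were lower without overlap in Long against Short pools. Their Long minus Short log2 differences were −0.11 and −0.04, where that of HTR2C was −0.66. Of the 25 tested genes of the list of thyroid hormone response, transport and receptors, HR and KLF9 were the 2 that fell in THX against Long pools, and 0 rose, where 0.233% of all tested genes fell and 0.0499% rose. THRB, a thyroid hormone receptor, had 16.6 and 12.4 CPM in THX pools, 13.4 and 13.5 CPM in Long pools, and 24.9 and 19.6 CPM in Short pools. Its Short pools were the highest, as for HTR2C, but its THX pools lay on either side of the Long pools (Long minus Short log2 difference −0.73, adjusted p = 0.342).

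Genes with a pattern like that of HTR2C were sought by the root mean square difference of log2 CPM, centred on the mean of the 6 pools. Among 12065 tested genes with a symbol and a mean of at least 2 CPM, the median difference from HTR2C was 0.577. The nearest was GASK1B (identifier 101112349, 1 of 2 that share this symbol), at 0.07. GASK1B had 1.80 and 1.64 CPM in THX pools, 2.94 and 2.94 CPM in Long pools, and 4.34 and 4.98 CPM in Short pools, so that its 3 levels did not overlap. ZNF469, a zinc finger gene (0.14), KLF13, a transcription factor (0.15), CORIN, the protease that activates atrial natriuretic peptide (0.16), and DISP3 (0.16) followed. CORIN had 8.78 and 8.78 CPM in THX pools, 12.5 and 12.5 CPM in Long pools, and 17.2 and 18.7 CPM in Short pools. The rest of the nearest 10 were LOX, which crosslinks collagen, the amino acid transporter SLC6A15, the metalloproteinase inhibitor TIMP3, PIGA, an enzyme of membrane anchor synthesis, and CCBE1, at 0.16 to 0.19. TIMP3 was the most abundant of the 10, at 71.2 and 53.3 CPM in THX pools, 75.7 and 86.2 CPM in Long pools, and 136.3 and 136.5 CPM in Short pools. In all 10 the THX pools were below the Long pools and the Long pools below the Short pools, which the choice by likeness favours.

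The reverse pattern was closest in the gene listed as C3H2orf40, named ECRG4 in the RefSeq table and known for a secreted peptide precursor of the choroid plexus. It had 1829 and 1870 CPM in THX pools, 1279 and 1147 CPM in Long pools, and 827.1 and 945.4 CPM in Short pools. The THX pools were the highest and the 3 groups did not overlap. NXPH3, SLC13A5, which carries citrate, IGFBP2 and MEGF10, a phagocytic receptor, followed. IGFBP2 had 2321 and 2889 CPM in THX pools, 1731 and 1726 CPM in Long pools, and 1246 and 1334 CPM in Short pools. The genes of both patterns were chosen on the same pools, and no test is given for their likeness.

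**Figure D4:**
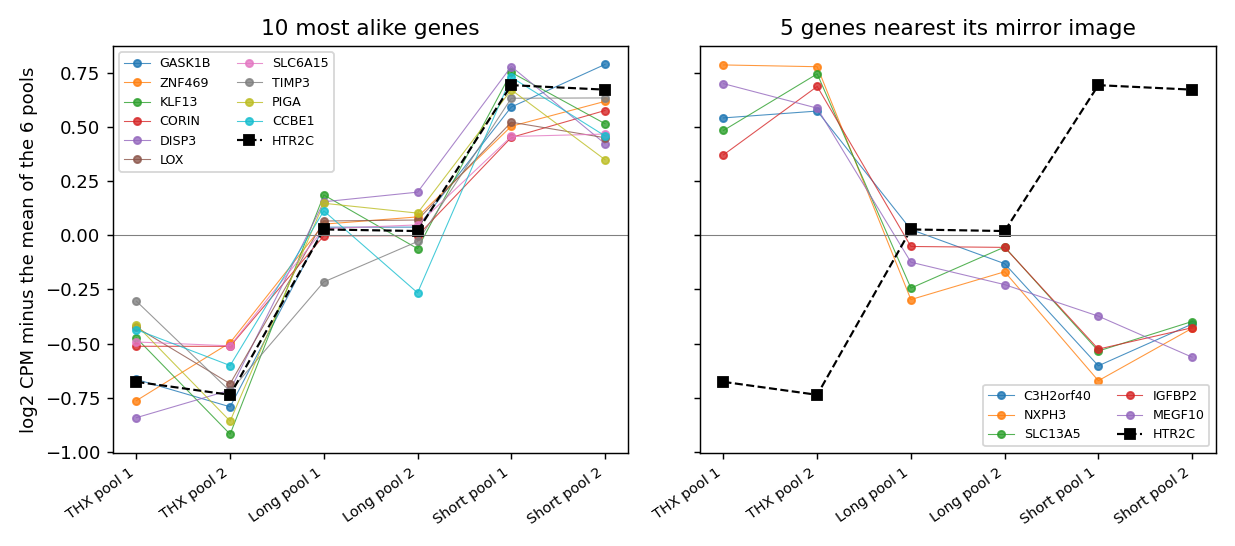
Log2 CPM minus the mean of the 6 pools (y axis) for HTR2C (dashed black) and, left, the 10 genes with the smallest root mean square difference from it and, right, the 5 nearest to its mirror image. HTR2C stands at −0.68 and −0.74 in THX pools, 0.03 and 0.02 in Long pools, and 0.69 and 0.67 in Short pools.

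The genes next to HTR2C on the X chromosome were read as well. The 4 listed genes with a symbol on each side were taken from the RefSeq annotation of the ARS-UI_Ramb_v3.0 assembly, which was used for gene order alone. PLS3, an actin-bundling protein gene, had 39.4 and 35.8 CPM in THX pools, 38.7 and 39.8 CPM in Long pools, and 45.3 and 50.2 CPM in Short pools. Its Short pools were the highest, its THX and Long pools overlapped, and no comparison passed (Long minus Short log2 difference −0.28, adjusted p = 0.342). Its adjusted p for THX minus Short was 0.106, and it was called there in 2 of 16 fits, by DESeq2 (adjusted p = 0.0295) and without THX pool 1 and Short pool 1. LRCH2 and AMOT had THX minus Long differences of −0.08 and −0.01 on the log2 scale (adjusted p = 0.98 and 0.995). Their Long minus Short differences were −0.30 and −0.16 (adjusted p = 0.529 and 0.601). KLHL4 was scarce, with 0.775 and 0.859 CPM in THX pools, 1.25 and 0.994 CPM in Long pools, and 1.25 and 0.996 CPM in Short pools. IL13RA2 had at most 13 counts in a pool, and LHFPL1, TRPC5 and TRPC5OS, with at most 2 counts in a pool, were not tested. None of the 5 tested neighbours passed in THX against Long, Long against Short or THX against Short pools, where 0.283%, 0% and 0.916% of all tested genes did. Each of the 5 had a lower mean in THX than in Short pools. The log2 differences were −0.47 (KLHL4), −0.34 (PLS3), −0.38 (LRCH2), −0.46 (IL13RA2) and −0.175 (AMOT), where that of HTR2C was −1.39.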

How the data were processed

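The members and gene lists were chosen with earlier results of these data known. Values were used as deposited by the authors, as unnormalised read counts for each gene. Libraries were made with a stranded kit, per the labels, and the submitters' processing notes name TopHat2 2.1.1 and featureCounts 2.0.0, without their roles. The sources used here do not give the build, annotation or strand setting, so reads of genes that overlap HTR2C on either strand cannot be told apart. Of 33609 identifiers, 28100 were in the RefSeq table.

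In R 4.3.3, edgeR 4.0.16 (default low-count filter, TMM, 1 mean per group, quasi-likelihood F test, two-sided) was fitted to all 6 pools, with 3 residual and 3.96 prior degrees of freedom. P-values were adjusted by Benjamini-Hochberg over all 18019 tested genes, with a threshold of 0.05; "rose", "fell" and "changed" mean that it was passed. CPM use TMM-scaled totals. Nothing says how the ewes of a pool were chosen, and p-values measure the spread between pools. The 2 pools of a group differed by more than counting allows (chi-square per gene 71.8 for THX, 16.2 for Long, 28.7 for Short), so they were kept as 2 samples.

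Genes were named by rule: all tested serotonin genes, ADAR and ADARB1, defining epithelial markers, neighbours and genes most like HTR2C. Likeness used log2 CPM with a prior count of 2. The rule also picked the genes with the lowest p of each list, of which some are not described. GNAQ, GNA11, GNA14, GNA15, SNAP25, POMC, LUM and those named from DESeq2 or leave-one-out calls, or as far points of a list, were named after their values were seen, as were the lowest members of the receptor list. Alternatives used DESeq2 1.42.0 and limma 3.58.1 (voom). The edgeR procedure was tested on simulated data. Figures used Python 3.11.15 and matplotlib 3.10.9.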

Additional observations from a re-analysis of the deposited data

How the results depend on the processing

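HTR2C kept its direction in all 3 comparisons under all 17 alternatives. Leaving out 1 pool gave log2 differences from −0.76 to −0.70 for THX minus Long, −0.67 to −0.65 for Long minus Short and −1.42 to −1.35 for THX minus Short. Scaling to total counts gave −0.78, −0.71 and −1.49 in that order. Scaling to the summed epithelial markers gave −0.95, −0.89 and −1.84. Scaling to the geometric mean of the markers without TTR, chosen after the data were seen, gave −0.90 and −0.50 for the first 2.

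Counts of called genes depended on the fit. In THX against Long pools the count over all genes was 51, and it was 204 with no filter, 448 by DESeq2, 22 with only the 4 pools compared, 159 without THX pool 1 and Short pool 1 together (chosen after the data were seen) and 2 to 37 without 1 pool. Long against Short gave 0, and 159 by DESeq2, 2 without those 2 pools and 0 to 4 without 1 pool. THX against Short gave 165, and 259 with total counts, 908 with no filter, 1761 by DESeq2, 11 with only the 4 pools, 1022 without those 2 pools and 10 to 1087 without 1 pool.

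Serotonin genes numbered 1 called (MAOA) with no filter and by DESeq2 in THX against Long and in THX against Short, and 1 in THX against Short without those 2 pools. Gq signalling genes called in THX against Short numbered 1 with total counts, 2 with no filter, 4 by DESeq2, 2 without those 2 pools and 0 to 2 without 1 pool. Of the other receptors, 1 was called with no filter and 5 by DESeq2 in THX against Long. In THX against Short 5 were called by DESeq2, 0 with only the 4 pools, 4 without those 2 pools and 0 to 2 without 1 pool. Epithelial markers called in THX against Long numbered 4 with no filter, 1 at a mean of at least 5 CPM, 7 by DESeq2, 0 with only the 4 pools, 6 without those 2 pools and 0 without any 1 pool. In Long against Short DESeq2 called 2. In THX against Short 11 were called with no filter, 11 by DESeq2, 0 with only the 4 pools, 13 without those 2 pools and 0 to 9 without 1 pool. The cause of these shifts was not tested. A fit with 1 pool left in a group assumes that this pool varies like the others.

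With the pool number as a replicate block, HTR2C was at −0.73, −0.66 and −1.39, epithelial markers called in THX against Long numbered 1, and genes called in THX against Short numbered 392. The labels give the pools no shared source. Differences between pool 1 and pool 2 correlated across genes at 0.067 (THX and Long), 0.211 (THX and Short) and −0.059 (Long and Short), so the numbers were not taken as pairs.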
